A study of Mus musculus with 21 samples.

Results

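Left ventricular (LV) RNA was compared between R403Q mice and their wild-type littermates, all fed a control diet. Mice were chosen by genotype and diet label alone, which gave 7 R403Q-CD and 5 WT-CD mice, 12 of the 21 mice with RNA-seq. All were male 129S6/SvEv mice, 12 weeks old, and each gave 1 sample. The R403Q mice are labelled Myh6+/R404Q (R403Q), a heterozygous change in the alpha-myosin heavy chain gene, and the WT mice carry no such allele. The control diet (CD) held no drug, and by the paper the sequenced mice had been on their diets for 2 weeks. The other 9 mice, 4 R403Q-EMPA and 5 WT-EMPA, had the same genotypes and ate the diet with 0.15 mg of empagliflozin (EMPA) per g, an inhibitor of the renal sodium-glucose cotransporter. The question was how the ventricular transcriptome differs with genotype before any drug, and the genes described here lie outside energy metabolism and the collagens.

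Alpha-myosin heavy chain is the main motor of the adult mouse ventricle, and missense changes in myosin cause hypertrophic cardiomyopathy, with thickened muscle, disarray, fibrosis and arrhythmia. A ventricle under strain is known to return to genes of the fetal heart, among them the pacemaker channels, natriuretic peptides and skeletal actin. LV tissue also holds fibroblasts, endothelial cells, pericytes and macrophages, whose RNA is counted with that of the myocytes. In such bulk tissue, more cells of a type and more RNA per cell cannot be told apart.

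Each library held between 27348777 and 43539684 counted read pairs, and 17025 genes were tested. The floor of 3 read pairs per library corresponded to at most 0.11 CPM (read pairs of a gene scaled to a common library depth) in these mice, and this limit covers counting error only. Ventricular cardiomyocyte markers summed to between 116945 and 131278 CPM in WT-CD and to between 75829 and 119664 CPM in R403Q-CD, so the labelled tissue was borne out by its defining genes. R403Q-CD replicate 2 stood apart, with the lowest sum of these markers, the highest fibroblast sum (7582 CPM) and the smallest share of counts in its 10 most abundant genes (10.4%, against 11.9% to 14.2% in the other control-diet mice). Many of the results that rest on it, though not all, are given with and without it. Myh6, which carries the change, had 46273, 41717, 40628, 45383 and 42482 CPM in the WT-CD mice and 17615, 35514 and 40916 CPM as the lowest, median and highest of R403Q-CD. The lowest of these was replicate 2, the groups overlapped, and the log2 fold change of -0.39 had an adjusted p of 0.216 (edgeR quasi-likelihood test, Benjamini-Hochberg adjustment). The table counts both alleles together, so it cannot show which one was transcribed.

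R403Q hearts differed from WT in 98 genes at an adjusted p under 0.05 (0.576% of those tested). Of these, 63 rose (0.37%) and 35 fell (0.206%). The genes that fell included channels of the pacemaker and T-type calcium currents, the A1 adenosine receptor, a WNT inhibitor and the transcription factor Klf15. Those that rose included Htatip2, Sec14l5, Rp1, the iron-binding proteins Trf and Ftl1, and Csf1r, Fcgr3, Cd53 and Ptprc, which macrophages and other leukocytes express. The rises were larger and in scarcer transcripts: the median log2 fold change was 0.73 for genes that rose and -0.46 for those that fell, and the median WT-CD level was 7.3 CPM and 40.7 CPM, against 13.2 CPM for all genes tested. Log2 fold changes reached 1 in 25 genes that rose and -1 in 4 that fell.

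**Figure D1:**
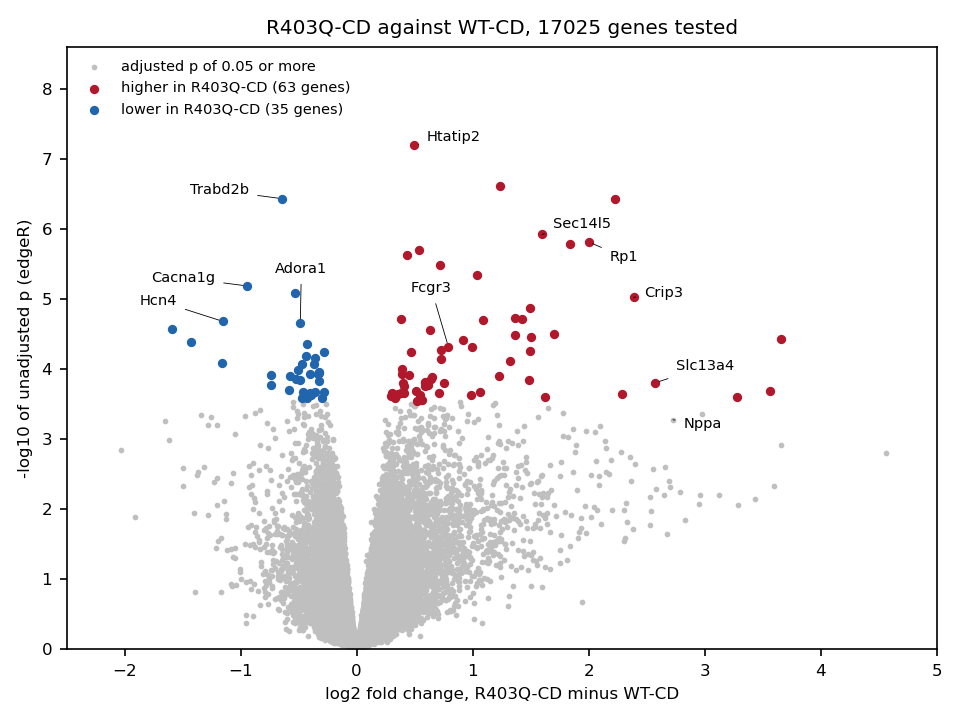
Each point is 1 of 17025 genes, with the log2 fold change of R403Q-CD over WT-CD on the horizontal axis and -log10 of the unadjusted edgeR p on the vertical axis. The 63 genes that rose (red) reach further from 0 than the 35 that fell (blue), and Nppa, labelled in grey, lies under the threshold.

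Among the 98 genes, every R403Q-CD mouse lay above every WT-CD mouse in 48 (1.16% of all genes tested did so) and below in 25 (0.993% of all genes). In the remaining 25 the groups overlapped. The 98 genes lie on 19 chromosomes, with none on chromosome 14, which holds Myh6, among 602 tested there and 11 on chromosome 7 among 1297. By biotype 80 were protein-coding (81.6%, against 81.1% of all genes tested), 13 were long non-coding RNAs and 5 were processed pseudogenes, all 5 of which rose. R403Q-CD mice differed more among themselves: the SD of the log2 level was larger than in WT-CD in 80 of the 98 genes and in 74.8% of all genes tested, or 65.7% without R403Q-CD replicate 2.

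How far the calls rest on single mice and on cages was checked for each gene. In 12 fits that each left out 1 mouse the direction held for all 98 wherever a gene was still tested, and 13 passed in all 12. The count of genes past the threshold fell to 14, 18, 17 and 20 without WT-CD replicate 1, 2, 3 or 4, to 37 and 30 without R403Q-CD replicate 4 or 5, and rose to 177 and 630 without R403Q-CD replicate 2 or 3. The 12 mice came from 4 cages, each with both genotypes, and with the cage as a block 18 of the 95 genes still tested passed, all 95 in the same direction. The other 77 had adjusted p between 0.0525 and 0.0901 in that fit. It held the 12 control-diet mice alone, whereas the 98 genes came from a fit that included R403Q-EMPA. The same 12 mice fitted without the cage gave 28 genes past the threshold. Values with the cage block therefore differ from the main fit in the mice fitted as well as in the cage. 9 genes passed both with the cage block and in every leave-one-out fit: Htatip2, Trabd2b, Cacna1g, Sec14l5, Rp1, Epdr1 and the uncharacterised 2610028H24Rik, AC119982.1 and Gm33474.

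Ion channels of the heart beat were among the genes that fell. Cacna1g encodes the T-type calcium channel Cav3.1 and Hcn4 the main pacemaker channel of the sinus node, and both are expressed more widely in the fetal than in the adult ventricle. Cacna1g (chromosome 11, 94408391 to 94474198, minus strand, GRCm38) had 36.7, 42.8, 45.2, 36.6 and 42.0 CPM in the WT-CD mice and 12.6, 21.1 and 30.6 CPM as the lowest, median and highest of R403Q-CD. The ranges did not meet, and the log2 fold change was -0.94 (SE 0.15, adjusted p = 0.00922 by edgeR, 0.0295 with the cage block). Hcn4 (chromosome 9, 58823412 to 58863175, plus strand) had 11.6, 12.2, 12.5, 16.1 and 8.83 CPM in WT-CD and 3.64, 5.17 and 9.34 CPM in R403Q-CD. R403Q-CD replicate 6 was the highest of its group and overlapped the lowest WT-CD mouse, replicate 5. The log2 fold change of Hcn4 was -1.15 (SE 0.20, adjusted p = 0.0178 by edgeR, 0.0688 with the cage block).

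The rest of that small list did not pass. Hcn2 had a log2 fold change of -0.29 and Cacna1h, the other ventricular T-type channel, of -0.21. In all, 2 of the 5 tested genes fell and none rose. Among 55 potassium channel genes tested, unadjusted p was under 0.05 with a lower level in 12 (8.45% of all genes) and with a higher level in 3 (11.2%). The inward rectifier Kcnj12 stood at -0.46 on the log2 scale (adjusted p = 0.052 by edgeR) and the background channel Kcnk3 at -0.45 (0.056). No voltage-gated sodium channel or associated gene passed among 15 tested by edgeR, with 5 lower at an unadjusted p under 0.05, and DESeq2 called 2 lower. Over all genes, DESeq2 called 794, 492 higher and 302 lower, against 98 by edgeR. Whether the DESeq2 counts given here and below for single lists exceed that background was not tested.

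Receptors and guidance molecules followed. Adora1, the A1 adenosine receptor that slows the heart through inhibitory G proteins (chromosome 1, 134199223 to 134235431, minus strand), had 29.2, 28.0, 24.4, 25.6 and 24.5 CPM in WT-CD and 15.6, 18.4 and 21.5 CPM in R403Q-CD. No mouse of one group reached the range of the other (log2 fold change -0.49, SE 0.08, adjusted p = 0.0178 by edgeR, 0.0688 with the cage block). It was the only one of 29 adrenergic, muscarinic, adenosine and peptide receptors past the threshold. The M2 muscarinic receptor Chrm2, which couples to the same G proteins, stood at -0.34 on the log2 scale (adjusted p = 0.0736 by edgeR). Ntn1, the guidance cue netrin-1, fell from 155, 175, 137, 177 and 174 CPM in WT-CD to 89.5, 105 and 137 CPM as the lowest, median and highest of R403Q-CD. The highest R403Q-CD mouse, replicate 3, lay at 136.6 CPM and the lowest WT-CD mouse at 136.9 CPM, so the groups touch without overlapping (log2 fold change -0.59, SE 0.12, adjusted p = 0.0459 by edgeR, 0.0379 with the cage block). Ntn1 passed in only 2 of the 12 leave-one-out fits. It was 1 of 67 semaphorin, ephrin and axon guidance genes tested, of which none rose.

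Further genes that fell at the cell surface were Cxadr, the coxsackievirus and adenovirus receptor of the intercalated disc (log2 fold change -0.43), and Acvr1b, a type I activin receptor (-0.46). With the cage block neither passed, at adjusted p of 0.0688 and 0.0651 by edgeR. Acvr1b, like the remaining genes outside the naming rule, was chosen after its values were seen.

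**Figure D2:**
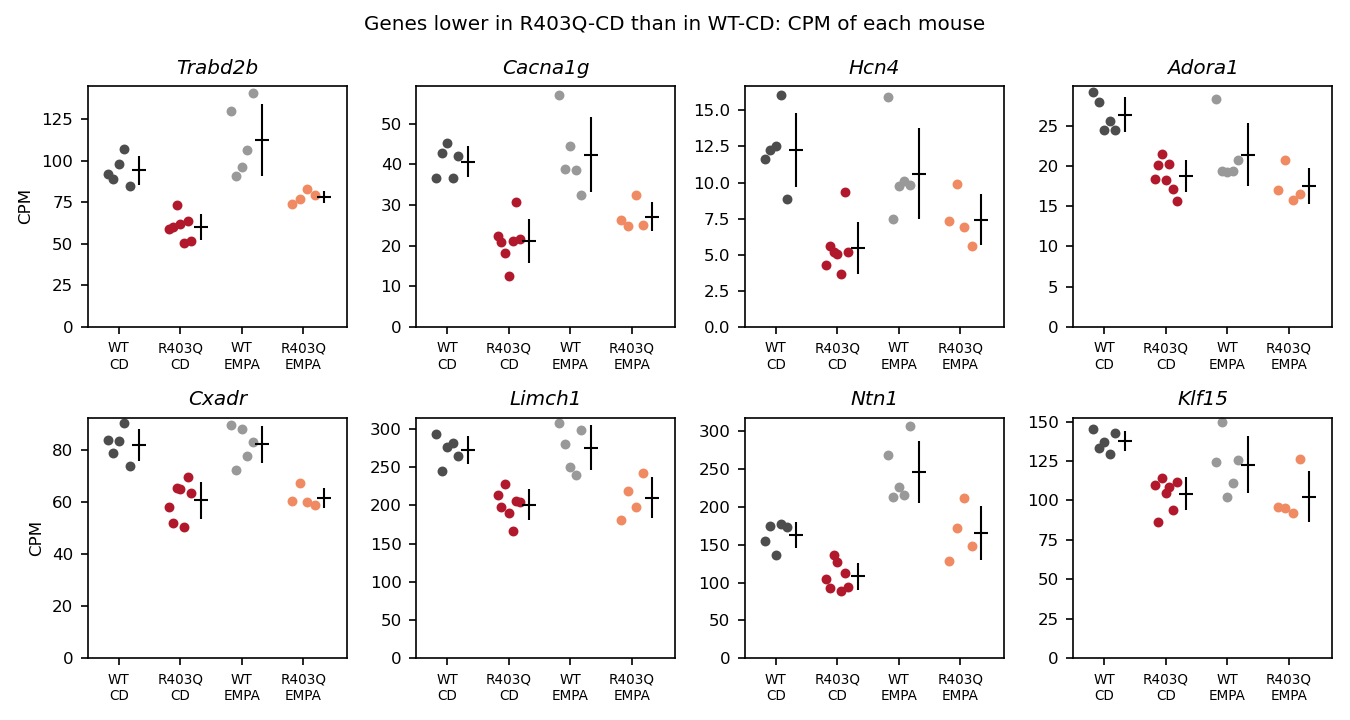
CPM of each mouse (points), with group mean ± SD beside them (bars), for 8 genes that fell, in 5 WT-CD, 7 R403Q-CD, 5 WT-EMPA and 4 R403Q-EMPA mice, with each vertical axis starting at 0. On the control diet only Hcn4 overlaps between the genotypes, through 1 R403Q-CD mouse at 9.34 CPM.

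The fall with the smallest p was that of Trabd2b. It encodes a membrane protease that inactivates WNT ligands (chromosome 4, 114406724 to 114615098, plus strand). It had 92.0, 89.2, 98.0, 107 and 84.6 CPM in WT-CD and 50.8, 60.2 and 73.5 CPM in R403Q-CD. The 2 ranges stood apart, and the log2 fold change of -0.64 (SE 0.08, adjusted p = 0.00159 by edgeR, 0.0269 with the cage block) ranged only from -0.70 to -0.59 when mice were left out. It was the only one of 47 WNT and Hippo genes in the list to pass. Bcl9, a coactivator of beta-catenin that is not in that list, also fell (log2 fold change -0.33, adjusted p = 0.04 by edgeR, 0.0691 with the cage block).

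Klf15, a Krüppel-like factor known to restrain cardiomyocyte growth, was the only one of 27 cardiac transcription factors to pass. Its levels were 145, 133, 137, 130 and 143 CPM in WT-CD and 86.3, 109 and 114 CPM in R403Q-CD. The groups stood apart in every mouse (log2 fold change -0.39, SE 0.09, adjusted p = 0.0459 by edgeR, 0.0602 with the cage block). Yet Klf15 passed in 2 of the 12 leave-one-out fits, those without R403Q-CD replicate 2 or 3. Of the 27, Klf15 included, 21 had log2 fold changes below 0 (47.5% of all genes did), 11 at an unadjusted p under 0.05 and none higher. Zfpm2 (-0.24), Tead1 (-0.37) and Mef2a (-0.23) had the next smallest p, with adjusted p from 0.0982 to 0.102 by edgeR. The median of the list was -0.17, or -0.10 when scaled by library size alone. Hif3a, a hypoxia-inducible factor subunit, fell too (log2 fold change -0.47, adjusted p = 0.0337 by edgeR, 0.0803 with the cage block, past the threshold in 5 of 12 leave-one-out fits), and with Klf15 it was 1 of 2 genes that passed among 21 glucocorticoid targets. Other targets in that list were higher, such as Mt2 with 0.91 and Errfi1 with 0.52, neither past the threshold.

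Further genes that fell act in the contractile cell and its signalling. Sh3rf2, a RING-finger scaffold, was the only ubiquitin ligase or autophagy gene among 32 to pass (log2 fold change -0.53, SE 0.08, adjusted p = 0.0106 by edgeR, 0.0525 with the cage block), and it passed in every leave-one-out fit. Limch1, an actomyosin regulator, fell by 0.43 on the log2 scale. Dmpk, the kinase whose gene is altered in myotonic dystrophy, was the most abundant gene to fall, at 533 ± 40.5 CPM in WT-CD and 432 ± 26.2 CPM in R403Q-CD (SD, n = 5 and 7). Slc44a2, a choline transporter-like protein, was the only solute carrier that fell among 252 tested. None of these 3 passed with the cage block, where the adjusted p by edgeR was 0.0651 for Limch1, 0.0803 for Dmpk and 0.0741 for Slc44a2.

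For 63 of the 98 genes, and 11462 of all tested, the promoter was found in RefSeq on GRCm38.p6, as 250 bases before to 50 after the gene start. The promoters of 3 genes that fell, channel, receptor and transcription factor, are shown first so that their GC-rich makeup can be read directly. In capitals are GC boxes (GGGCGG), E-boxes (CACGTG) and antioxidant response elements (ARE, TGACNNNGC), each searched on both strands. The windows are chr9:58822699-58822998 on the plus strand for Hcn4, which starts 463 bases from the GENCODE start used above, chr1:134235408-134235707 on the minus strand for Adora1, and chr6:90462326-90462625 on the plus strand for Klf15.
Hcn4: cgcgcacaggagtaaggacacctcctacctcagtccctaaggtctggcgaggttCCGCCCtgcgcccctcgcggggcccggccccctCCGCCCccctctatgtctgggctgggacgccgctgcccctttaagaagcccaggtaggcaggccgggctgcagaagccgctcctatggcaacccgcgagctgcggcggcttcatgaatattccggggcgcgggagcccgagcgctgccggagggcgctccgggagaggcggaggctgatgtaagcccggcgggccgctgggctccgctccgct
Adora1: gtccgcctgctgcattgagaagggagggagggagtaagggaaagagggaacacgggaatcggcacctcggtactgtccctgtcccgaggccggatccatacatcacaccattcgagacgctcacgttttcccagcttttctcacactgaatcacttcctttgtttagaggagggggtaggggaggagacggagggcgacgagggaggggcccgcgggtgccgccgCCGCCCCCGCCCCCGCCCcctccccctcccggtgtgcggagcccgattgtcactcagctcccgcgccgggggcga
Klf15: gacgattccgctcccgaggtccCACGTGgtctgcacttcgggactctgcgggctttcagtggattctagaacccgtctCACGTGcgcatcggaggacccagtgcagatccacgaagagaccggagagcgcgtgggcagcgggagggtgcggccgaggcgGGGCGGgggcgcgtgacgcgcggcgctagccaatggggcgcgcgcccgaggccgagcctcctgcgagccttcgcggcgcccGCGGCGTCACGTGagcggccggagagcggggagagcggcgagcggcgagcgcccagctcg
Adora1 holds 3 GC boxes in a row, Hcn4 holds 2, and Klf15 holds 1 GC box, 3 E-boxes and 1 ARE that overlaps the last E-box. A match describes letters in the window and is not a binding site. GC boxes occurred in 62.2% of the promoters of all genes tested, E-boxes in 9.93% and AREs in 14.7%. Among the 22 matched genes that fell, 15 held a GC box and 4 an E-box, and the median GC content was 66.0% against 60.7% in all promoters. The 41 matched genes that rose had a median of 54.3%, and 19 of them held a GC box.

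Of the genes that rose, Htatip2 had the smallest p in the comparison. It encodes an oxidoreductase-like protein linked to apoptosis and was the only one of 32 genes of p53, cell cycle inhibition and apoptosis to pass (chromosome 7, 49759115 to 49773975, plus strand). Levels were 17.4, 16.0, 16.7, 16.0 and 17.3 CPM in WT-CD and 21.5, 23.7 and 25.2 CPM in R403Q-CD. The 2 ranges were narrow and well apart (log2 fold change 0.50, SE 0.06, adjusted p = 0.00109 by edgeR, 0.0295 with the cage block). Of the 32 genes, 11 were higher at an unadjusted p under 0.05 and none lower. Bid, a proapoptotic BCL2 relative, had a log2 fold change of 0.95, with an adjusted p of 0.104 by edgeR.

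Sec14l5 and Rp1 rose from low levels by larger factors. Sec14l5, of a family of lipid-binding proteins, had 4.15, 4.31, 3.51, 3.32 and 1.84 CPM in WT-CD and 6.29, 10.8 and 13.4 CPM in R403Q-CD. The groups were fully apart (log2 fold change 1.6, SE 0.22, adjusted p = 0.00399 by edgeR, 0.007 with the cage block). Rp1, a microtubule protein of the photoreceptor axoneme (chromosome 1, 3999557 to 4409241, minus strand), had 1.63, 3.14, 1.72, 2.11 and 2.61 CPM in WT-CD and 3.16, 10.4 and 12.9 CPM in R403Q-CD. R403Q-CD replicate 7 lay just above the highest WT-CD mouse, and the other 6 were higher still (log2 fold change 2.0, SE 0.28, adjusted p = 0.00399 by edgeR, 0.0389 with the cage block). No other gene of 34 in the microtubule and cilium list passed. Sept6, a septin (log2 fold change 0.54), and Epdr1, an ependymin-related lysosomal protein (0.43), also rose without overlap and passed in every leave-one-out fit. With the cage block Epdr1 had an adjusted p of 0.0488 and Sept6 of 0.0651.

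Trf and Ftl1, whose proteins bind iron, both rose. Trf encodes transferrin, the iron carrier of plasma, and Ftl1 the light chain of ferritin, the iron store of the cell. Trf had 23.7, 36.3, 25.7, 28.6 and 36.1 CPM in WT-CD and 40.3, 46.3 and 59.0 CPM in R403Q-CD. Ftl1 had 125, 120, 127, 117 and 142 CPM in WT-CD and 145, 160 and 173 CPM in R403Q-CD. Both were higher in all 7 R403Q-CD mice than in any WT-CD mouse, with log2 fold changes of 0.64 (adjusted p = 0.0206 by edgeR, 0.0688 with the cage block) and 0.33 (0.047, and 0.0767 with the cage block). Ftl1 has processed copies elsewhere in the genome, so its count depends on how reads were assigned. Among 29 antioxidant and NRF2 targets it was the only call, while 24 of 29 had log2 fold changes above 0 (52.5% of all genes did), 9 at an unadjusted p under 0.05. Gsta4, a glutathione transferase, had 0.40 and the peroxiredoxin Prdx1 had 0.29, and DESeq2 called 6 of the 29 higher. Pir, the iron-binding protein pirin that is not in the list, rose with a log2 fold change of 0.65, but had an adjusted p of 0.0693 by edgeR with the cage block.

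Many of the larger rises came from transcripts near 1 CPM or below in WT-CD. Crip3, a LIM-domain protein, had 0.170, 0.182, 0.482, 0.403 and 0.223 CPM in WT-CD and 0.581, 1.67 and 2.74 CPM in R403Q-CD. All R403Q-CD mice exceeded all WT-CD mice (log2 fold change 2.39, SE 0.38, adjusted p = 0.0115 by edgeR, 0.0401 with the cage block). Cdh4, encoding R-cadherin, rose by 1.70 on the log2 scale and Aqp8, an aquaporin, by 1.37, with adjusted p of 0.041 and 0.0602 by edgeR with the cage block. The solute carriers Slc13a4, a sulphate transporter, and Slc35f3 had fitted values of 2.57 and 3.56, and Gsdma, a gasdermin, of 3.28. Slc35f3 averaged 0.0275 CPM and Gsdma 0.0372 CPM in WT-CD, under the floor, so the size of these 2 rises is not determined. Cpxm2, a carboxypeptidase-like secreted protein, was far more abundant, at 29.9 ± 14.7 CPM in WT-CD and 83.3 ± 31.7 CPM in R403Q-CD (SD, n = 5 and 7), and the groups overlapped (log2 fold change 1.49, adjusted p = 0.0408 by edgeR, 0.0688 with the cage block). Inmt, an indolethylamine methyltransferase, also rose with overlap (1.23). With the cage block the adjusted p by edgeR was 0.0602 for Slc13a4 and 0.0773 for Inmt, and Slc35f3 and Gsdma were not tested.

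**Figure D3:**
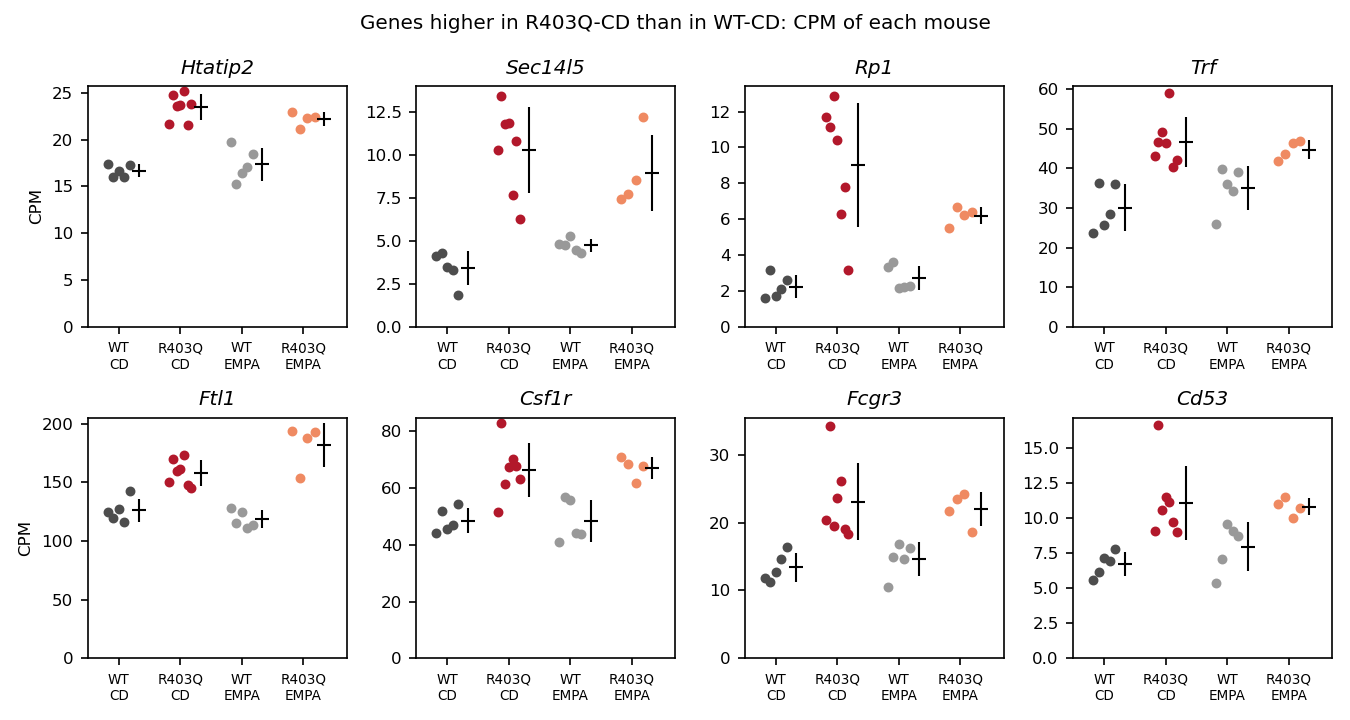
CPM of each mouse (points), with group mean ± SD beside them (bars), for 8 genes that rose, in 5 WT-CD, 7 R403Q-CD, 5 WT-EMPA and 4 R403Q-EMPA mice, with each vertical axis starting at 0. On the control diet Csf1r is the only one whose groups overlap, and R403Q-CD replicate 2 is the highest point of Csf1r, Fcgr3 and Cd53.

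Eef1a1 rose, and no ribosomal protein passed. Eef1a1, the elongation factor that brings tRNA to the ribosome, had 682, 731, 671, 586 and 749 CPM in WT-CD and 798, 908 and 1253 CPM in R403Q-CD. The groups did not overlap (log2 fold change 0.54, SE 0.12, adjusted p = 0.0491 by edgeR, 0.0723 with the cage block). It was chosen after its values were seen, it has near-identical processed pseudogenes, and the uniquely aligned reads counted for it may leave out shared ones. No cytosolic ribosomal protein passed by edgeR among 79 tested, with 31 higher and 1 lower at an unadjusted p under 0.05, and DESeq2 called 5 higher. Of the 79, 74 had log2 fold changes above 0, with a median of 0.20 against 0.01 for all genes. Rpl10 (0.49) and Rpl7 (0.28) had the smallest p, each with an adjusted p of 0.0726 by edgeR.

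Genes of macrophages and other leukocytes also rose, named after their values were seen except Clec4n, Ly86 and Cytip. Fcgr3, a low-affinity receptor for immunoglobulin G, had 11.9, 11.3, 12.7, 14.7 and 16.4 CPM in WT-CD and 18.4, 20.4 and 34.3 CPM in R403Q-CD. Cd53, a leukocyte tetraspanin, had 5.57, 6.18, 7.16, 6.95 and 7.82 CPM in WT-CD and 8.998, 10.6 and 16.6 CPM in R403Q-CD. Neither gene overlapped between the groups, and R403Q-CD replicate 2 was the highest mouse for both. The log2 fold change of Fcgr3 was 0.79 (adjusted p = 0.0255 by edgeR, 0.0693 with the cage block), or 0.67 without replicate 2. That of Cd53 was 0.73 (0.027, and 0.0651 with the cage block), or 0.60 without replicate 2.

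Csf1r, the receptor for the macrophage growth factor CSF1, rose with overlap, from 44.0, 51.9, 45.5, 46.9 and 54.5 CPM in WT-CD to 51.5, 67.3 and 82.8 CPM in R403Q-CD. Its log2 fold change was 0.46 (adjusted p = 0.04 by edgeR, 0.0651 with the cage block), and 0.40 without replicate 2. The pan-leukocyte phosphatase Ptprc (0.59), the inhibitory Fc receptor Fcgr2b (0.73), the lipopolysaccharide co-receptor Cd14 (0.71), the integrin partner Fermt3 (0.61) and the leukotriene receptor Cysltr1 (0.92) rose as well. Of these, Cysltr1 alone passed with the cage block, at an adjusted p of 0.0269 by edgeR, and the other 4 had 0.0688 to 0.0803. Clec4n, the fungal lectin receptor dectin-2 (1.324), Ly86, a partner of an endotoxin receptor relative (1.06), and Cytip, a cytohesin partner of leukocytes (1.498), were scarcer, below 2 CPM on average in WT-CD, and had adjusted p of 0.0602 to 0.0701 by edgeR with the cage block. Without replicate 2 the log2 fold change was 0.78 for Cysltr1, 1.11 for Clec4n and 1.326 for Cytip.

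The promoter of Cd53 is shown because it holds a match to the letters bound by PU.1, the myeloid transcription factor, and those of Htatip2 and Sec14l5 because these 2 genes passed with the cage block and in every leave-one-out fit. In capitals are PU.1 letters (GAGGAAGT), GC boxes (GGGCGG), AREs (TGACNNNGC) and AGATAA, which the GATA factors bind, each on either strand. The windows are chr3:106790100-106790399 on the minus strand for Cd53, chr7:49758856-49759155 on the plus strand for Htatip2 and chr16:5146859-5147158 on the plus strand for Sec14l5.
Cd53: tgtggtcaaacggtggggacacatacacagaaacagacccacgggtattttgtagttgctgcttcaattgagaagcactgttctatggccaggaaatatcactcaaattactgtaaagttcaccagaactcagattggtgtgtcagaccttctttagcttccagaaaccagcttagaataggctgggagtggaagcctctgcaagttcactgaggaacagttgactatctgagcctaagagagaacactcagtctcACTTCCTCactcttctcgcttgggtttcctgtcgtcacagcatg
Htatip2: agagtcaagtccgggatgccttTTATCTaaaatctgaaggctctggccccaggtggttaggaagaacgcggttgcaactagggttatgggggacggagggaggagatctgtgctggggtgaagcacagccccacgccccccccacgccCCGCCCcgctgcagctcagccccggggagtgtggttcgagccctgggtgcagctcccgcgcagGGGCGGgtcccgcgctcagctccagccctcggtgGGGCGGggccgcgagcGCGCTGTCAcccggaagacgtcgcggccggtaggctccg
Sec14l5: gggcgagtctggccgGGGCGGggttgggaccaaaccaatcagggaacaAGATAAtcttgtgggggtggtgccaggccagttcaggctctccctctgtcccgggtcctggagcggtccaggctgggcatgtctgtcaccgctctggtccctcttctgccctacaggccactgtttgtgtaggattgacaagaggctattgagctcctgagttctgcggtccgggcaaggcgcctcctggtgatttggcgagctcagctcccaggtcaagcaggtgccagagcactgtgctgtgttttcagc
The PU.1 letters occurred in 2 of the 41 matched promoters of genes that rose, in 0 of 22 of those that fell and in 3.05% of all promoters. AGATAA occurred in 5 of the 41, in 0 of the 22 and in 6.6% of all. AREs, which Htatip2 also holds, were in 7 of the 41 and 3 of the 22. The TATA box (TATAAA), the cyclic AMP response element (TGACGTCA) and the MEF2 motif were searched as well and occurred in 7.63%, 3.07% and 3.18% of all promoters.

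Markers of several cell types moved alongside, and not all in the same direction. Of 12 macrophage markers tested, Csf1r rose and 11 had log2 fold changes above 0. Their summed level was 380.9 to 525.5 CPM in WT-CD and 534 to 938.2 CPM in R403Q-CD, with replicate 2 the highest, so all 7 R403Q-CD mice lay above all WT-CD mice. The median log2 fold change of these markers was 0.59, and 0.40 without replicate 2. Endothelial markers summed to 1938 to 2130 CPM in WT-CD and 2155 to 2626 CPM in R403Q-CD, again without overlap, though none of the 12 passed. Neutrophil and mast cell markers summed to 9.05 to 19.8 CPM against 19.6 to 28.5 CPM, with the neutrophil gene Ly6g under the floor, and T and NK cell markers stayed between 1.64 and 4.45 CPM in all 12 mice. All 12 fibroblast markers had log2 fold changes above 0, 9 at an unadjusted p under 0.05, with no call by edgeR and 1 by DESeq2. Their sum was 2398 to 3970 CPM in WT-CD and 2979 to 7582 CPM in R403Q-CD, with replicate 2 the highest and 3 of 7 mice above the WT-CD range, and their median of 0.61 was 0.37 without that mouse. Of 10 markers of activated fibroblasts 9 lay above 0, 6 at an unadjusted p under 0.05 and none past the threshold by either tool. They summed to 189.8 to 530.2 CPM in WT-CD and 308 to 1650 CPM in R403Q-CD, again highest in replicate 2, with 2 of 7 mice above the WT-CD range, and the median of 1.53 was 0.48 without it. The 8 mesothelial markers all lay above 0, 5 at an unadjusted p under 0.05, with no call by edgeR and 1 by DESeq2. Their sum of 7.539 to 28.41 CPM in WT-CD and 9.782 to 84.78 CPM in R403Q-CD put 3 of 7 mice above the WT-CD range, and the median was 1.59, or 1.68 without replicate 2, which lay within that range. Cardiomyocyte markers overlapped as well, with 4 of the 7 R403Q hearts under the WT-CD range. Pericyte markers summed to 1314 to 1443 CPM in WT-CD and 999.5 to 1453 CPM in R403Q-CD. There 5 of 7 mice lay below the WT-CD range and 1 above, though 6 of the 8 markers had log2 fold changes above 0. Pacemaker and conduction cell markers, Hcn4 among them, summed to 154 to 177.6 CPM and 137.4 to 173.7 CPM. In these 5 of 7 mice lay below the WT-CD range, while 5 of 10 tested markers were above 0. The part of these shifts in the single-gene results was not tested.

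Several lists had no gene past the threshold and most of their members above 0. Among 40 interferon-stimulated genes edgeR called 0, with 30 higher and none lower at an unadjusted p under 0.05, and DESeq2 called 8 higher. Of these 40, 39 had log2 fold changes above 0, with a median of 0.63, but 0.33 without R403Q-CD replicate 2. Ifit3b, an interferon-induced antiviral protein, had 1.07 (adjusted p = 0.0845 by edgeR) and the deubiquitinase Usp18 had 1.22 (0.0929). Among 40 genes of cytokines, chemokines and complement edgeR called 0, with 18 higher and 1 lower at an unadjusted p under 0.05, and DESeq2 called 9 higher. There 39 of the 40 lay above 0, among them Il18 with 0.73 and the complement gene C1qc with 0.55.

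Hypertrophy markers varied widely among the R403Q hearts. Nppa, the atrial natriuretic peptide, had 374, 500, 238, 600 and 461 CPM in WT-CD and 882, 1141 and 11049 CPM in R403Q-CD. All R403Q-CD mice were above all WT-CD mice, with replicate 2 near 11049 CPM and the next at 3809 CPM. The adjusted p of 0.0579 by edgeR (log2 fold change 2.73) lay just over the threshold and was 0.0299 without replicate 2 (1.81). The other named markers overlapped. Nppb had 62.5 to 169.9 CPM in WT-CD and 139 to 648.3 CPM in R403Q-CD, Acta1 174.8 to 507 and 262.8 to 3662 CPM, and Ankrd1 1281 to 2124 and 1318 to 6700 CPM. Each was highest in replicate 2. Myh7 lay lower, with 2627 to 2955 CPM in WT-CD and 1913 to 2947 CPM in R403Q-CD, and was lowest in replicate 2. Markers of atrial cardiomyocytes, a list without Nppa, were also highest in replicate 2, where they summed to 3027 CPM, against 1109 to 1574 CPM in WT-CD and a lowest value of 1231 CPM in R403Q-CD. Of the 11 tested 7 had log2 fold changes above 0, none passed, and their median of 0.32 was -0.29 without replicate 2. Their part in the Nppa values was not tested. None of the 26 genes in the list of hypertrophy and stretch markers passed by edgeR, with 14 higher at an unadjusted p under 0.05, and DESeq2 called 3. The median log2 fold change was 0.43, and 0.23 without replicate 2. Matrix proteins other than collagens had 18 of 62 higher at an unadjusted p under 0.05, no call by edgeR and 3 by DESeq2, and their median of 0.41 was 0.14 without that mouse. DESeq2 called 794 genes in all, and its counts in these lists were not tested against that background.

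Of the contractile and calcium-cycling genes of the myocyte, most lay below 0. Among 31 sarcomere proteins edgeR called 0, with 7 lower and 1 higher at an unadjusted p under 0.05, and DESeq2 called 1 lower. The thin filament cap Tmod1 had a log2 fold change of -0.23 and Myom3, an M-band protein, of -0.42. Among 32 genes of sarcoplasmic reticulum calcium handling edgeR called 0, with 9 lower and 1 higher at an unadjusted p under 0.05, and DESeq2 called 3 lower. Camk2b, a calcium and calmodulin kinase subunit, had -0.60 (adjusted p = 0.0594 by edgeR) and Jph2, which anchors the dyad, -0.38 (0.0666). The median of the calcium list was -0.06 under TMM scaling and 0.01 with library size alone, so its direction depends on the scaling. Core clock genes had 16 of 21 below 0, no call by edgeR with 4 lower and 1 higher at an unadjusted p under 0.05, and 4 calls by DESeq2.

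**Figure D4:**
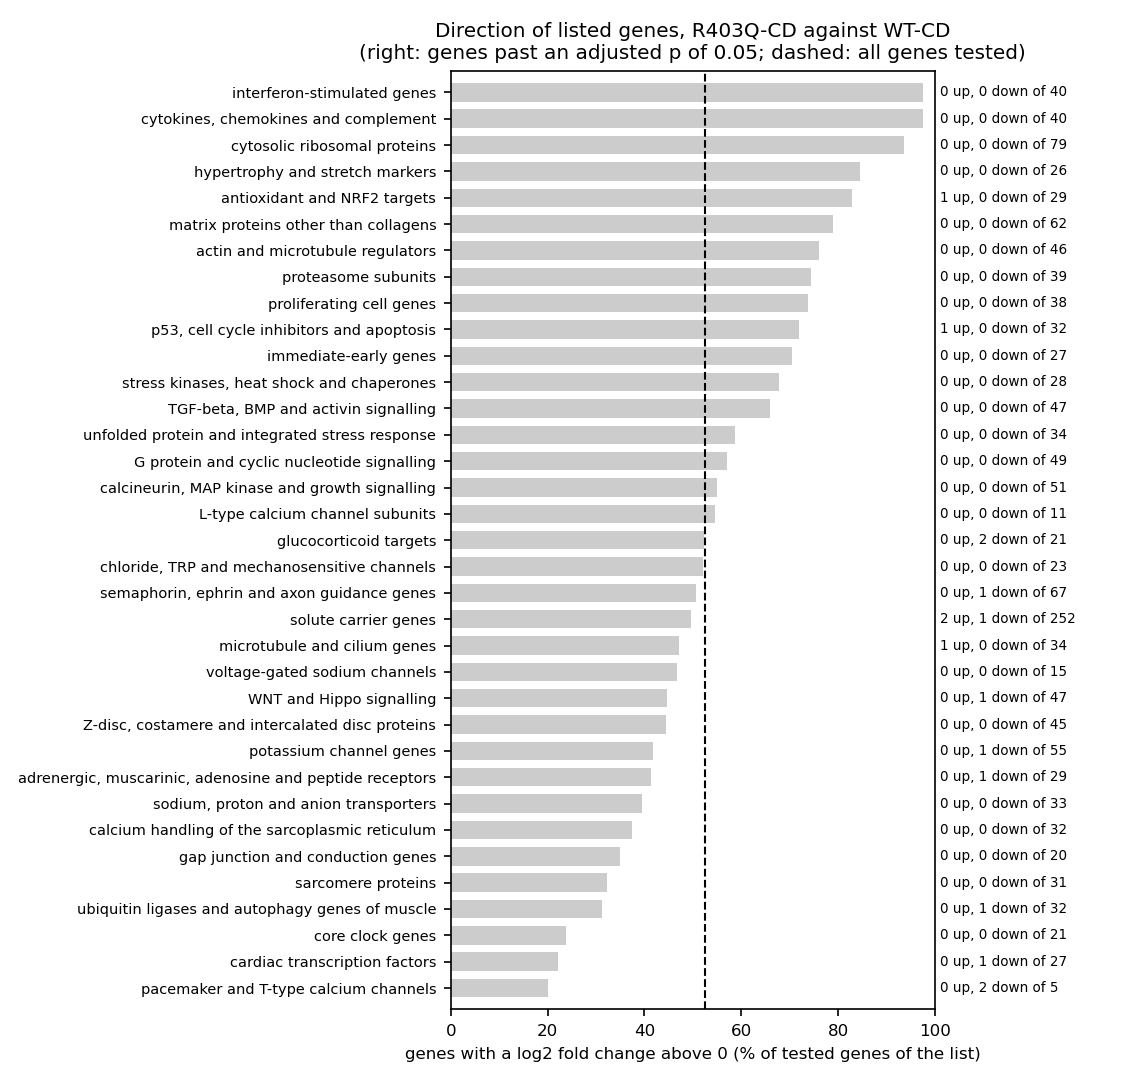
For 35 gene lists, the bar gives the percentage of tested members with a log2 fold change above 0 in R403Q-CD over WT-CD, and the text gives the members past the threshold. The dashed line is the 52.5% of all 17025 genes, interferon-stimulated and cytokine genes lie at 97.5%, and the pacemaker and T-type channels, with 5 genes, lie at 20%.

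The same genes were then read in the EMPA-fed mice, none of which is in the control-diet comparison. Those mice sat in other cages, so diet and cage cannot be told apart, and R403Q-EMPA also lent its spread to the control-diet fit. Of the 98 genes 95 were tested there and 93 had the same direction (97.9%), against 71.8% of all genes tested in both. Crip3 (-0.18 in EMPA-fed mice) and Tmem47 (0.02) had the opposite sign. The log2 fold change was smaller in size in EMPA-fed mice for 83 of the 95, with a median ratio of 0.604 to that on the control diet. The genes were chosen by their control-diet values, so these sizes are a description with no test. In EMPA-fed mice 123 genes passed (0.739%), and they included 17 of the 95: Sec14l5, Rp1, Sept6, Epdr1, Aqp8, Cpxm2, Pir, Tbce, Ftl1, Gm12092, Gm35330 and 2610028H24Rik among the rises, and Cxadr, Syngr2, Hif3a, Bcl9 and Sorcs2 among the falls.

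Levels in single EMPA-fed mice show the range behind this. Averaged over the 63 genes that rose, the log2 level relative to the WT-CD mean lay between 0.58 and 0.735 in the 4 R403Q-EMPA mice and between -0.033 and 0.247 in the 5 WT-EMPA mice. Over the 35 genes that fell it lay between -0.397 and -0.323 and between -0.134 and 0.134. In both sets every R403Q-EMPA mouse stood beyond every WT-EMPA mouse. Rp1 had 5.52 to 6.69 CPM in R403Q-EMPA and 2.14 to 3.59 CPM in WT-EMPA, and Cacna1g had 24.7 to 32.4 CPM and 32.5 to 57.0 CPM. Crip3 differed from this pattern, with 0.387 to 0.602 CPM in R403Q-EMPA overlapping the 0.431 to 0.869 CPM of WT-EMPA. No gene passed the test of the difference between the 2 genotype effects by edgeR (0.0% of 17309, smallest adjusted p 0.537) or by DESeq2, and 567 had an unadjusted p under 0.05 by edgeR.

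**Figure D5:**
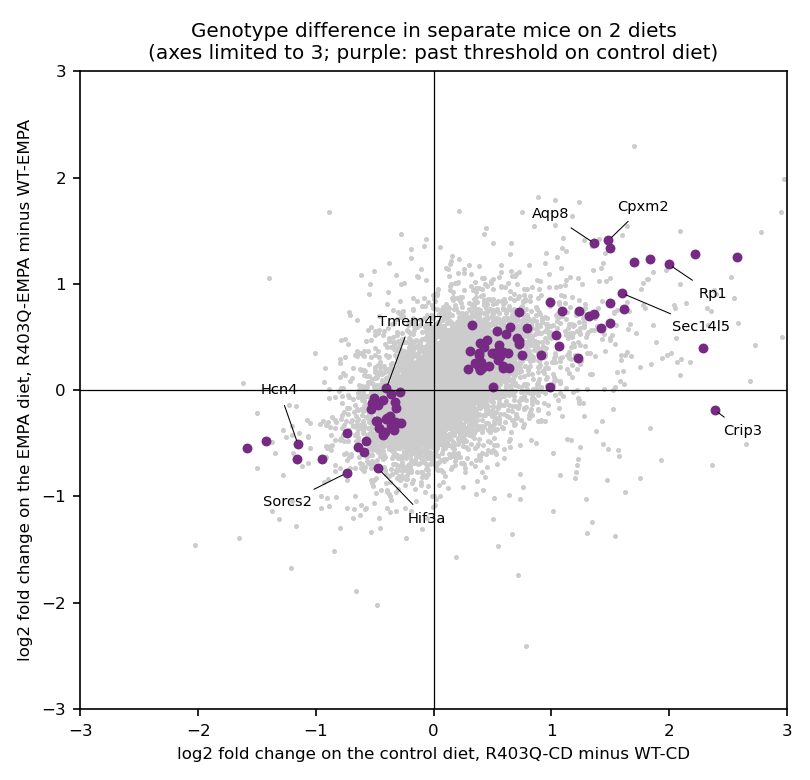
Each point is a gene tested on both diets, with its log2 fold change for R403Q over WT on the control diet (horizontal) and in EMPA-fed mice (vertical), and both axes are limited to 3, which leaves out 3 genes. The genes past the threshold on the control diet (purple) lie in the lower left and upper right quadrants except Crip3 and Tmem47.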

How the data were processed

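LV RNA of 21 male mice was sequenced. The deposited table holds counts of read pairs per gene, which the authors made by poly(A) library preparation, alignment with STAR (2.6.0c) to mm10, and counting of unique pairs on the sense strand with featureCounts (Subread 1.6.2) in Ensembl genes. Mitochondrial genes are not in the table. A second deposited table holds log2-scale variance-stabilised values from the authors' DESeq2 (1.32.0), used only for limma. The labels give 16 weeks of diet, and the paper gives 2 weeks for the mice that were sequenced. Mice 12 weeks old cannot have eaten the diet for 16 weeks, so the time given by the paper was taken. Groups were taken from the labels, and 0 columns were left unmapped. Gene names and coordinates came from GENCODE M21 on GRCm38, which named 55190 of 55450 IDs.

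Counts of WT-CD, R403Q-CD and R403Q-EMPA were fitted together with edgeR 4.0.16 (R 4.3.3), after filterByExpr with a minimum count of 10 and TMM scaling, by quasi-likelihood tests with Benjamini-Hochberg adjustment at 0.05. EMPA-fed mice were fitted separately, and the difference of genotype effects over all 4 groups. CPM was scaled by TMM over all mice. The SE is the log2 fold change divided by the root of F. Scripts were tested on simulated data. Alternatives were DESeq2 1.42.0, limma 3.58.1, other scalings, filters and groups, cage as a block in the control-diet mice alone, and leaving out each mouse. Cages came from the labels, and the deviations of same-cage pairs of opposite genotype correlated with a median of 0.218 (8 pairs, from -0.2 to 0.281), against -0.0299 in 27 other pairs.

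Genes were named by rule: the 12 highest-ranked calls in each direction with established symbols, every list member past the threshold, the 2 smallest p in lists without one, calls with an absolute log2 fold change of at least 1, Myh6 and 5 hypertrophy markers. Other genes were chosen after their values were seen. The comparison and the lists (35 of pathways or families, 18 of cell types) were chosen with earlier results of these data known. Each mouse gave 1 sample. A few genes are not reported here.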

Additional observations from a re-analysis of the deposited data

Results flagged for a closer look

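Single mice lay far from the rest of their group in 32 of 298 groups of values examined (149 named genes in WT-CD and R403Q-CD), by the gap to the nearest mouse as a share of the group's range (over 0.71 for 5 mice and 0.568 for 7). Chance flags about 1 in 20 such groups. R403Q-CD replicate 2 accounted for 22 of the 32.

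In that mouse the hypertrophy genes Nppa (11049 CPM), Acta1 (3662 CPM), Nppb (648 CPM) and Nmrk2 (218 CPM) were highest, as were the growth factors Tgfb2 (66.7 CPM) and Igf1 (61.6 CPM), the ryanodine receptor Ryr3 (26.8 CPM), the calcium channel subunit Cacnb3 (9.59 CPM), the early genes Egr3 (11 CPM) and Egr2 (10.9 CPM), and the fibrosis gene Cthrc1 (4.74 CPM). Leukocyte and interferon genes were highest in it too: Cd53 (16.6 CPM), Usp18 (8.98 CPM), Cysltr1 (7.92 CPM), Clec4n (7.8 CPM) and Ly86 (6.47 CPM). So were Gm12092 (16 CPM), Rpp25 (10.9 CPM), Tyms (5.72 CPM), Pvt1 (2.89 CPM) and Gsdma (1.27 CPM), and Ank was lowest in it (179 CPM).

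In other R403Q-CD mice the highest values were Hcn4 (9.34 CPM) and Dusp8 (42.9 CPM) in replicate 6, Epdr1 (30.6 CPM), Adcy5 (149 CPM) and Camk2b (11.6 CPM) in replicate 3, Itgb1bp1 (57.7 CPM) and Ogfod3 (13.3 CPM) in replicate 4, and Ptp4a3 (318 CPM) in replicate 7. In WT-CD, Usp18 was highest in replicate 5 (2.56 CPM) and Myh7 lowest in replicate 3 (2627 CPM).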

How the results depend on the processing

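The direction of every named gene held under each alternative in which it was tested, but the number of genes past the threshold depended on the fit. For R403Q-CD against WT-CD (98 genes, 63 higher and 35 lower) DESeq2 called 794 (492 higher, 302 lower), a fit of the 2 groups alone 28 (19 and 9), a fit of all 4 groups 250 (153 and 97), and the fit with cage as a replicate block, a paired analysis, 19 (14 and 5). The fit with the cage block also held the 2 groups alone. Library size alone gave 118 higher and 29 lower. Leaving out 1 mouse gave 14 to 630 genes, 11 to 344 higher and 3 to 286 lower. All 98 genes passed by DESeq2 and 28 in the fit of 2 groups. For R403Q-EMPA against WT-EMPA (123 genes) DESeq2 called 892 (430 higher, 462 lower), the fit of all 4 groups 10 (6 and 4), and leaving out 1 mouse gave 22 to 224, with 10 to 137 higher and 8 to 87 lower. Scaling by library size alone moved the median log2 fold change of all genes from 0.01 to 0.08. Transcripts under the floor of 3 read pairs have no determined fold change. The causes of these shifts were not tested.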
